A study of Mus musculus with 3 samples.

Results

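Oxidative phosphorylation joins the electron transport chain to ATP synthesis, and its subunits come from 2 genomes. The genes described here are every mitochondrially encoded protein gene and every nuclear protein-coding gene whose symbol begins with Ndufa, Ndufb, Ndufc, Ndufs, Ndufv, Sdha to Sdhd, Uqcr, Cyc1, Cox4 to Cox8 or Atp5. That choice by symbol and genome takes 114 mouse genes, and 93 of them were among the 9822 genes of the tables. The 93 comprised all 13 mitochondrial protein genes, each called a mitochondrial mRNA below, and 80 of 101 nuclear genes. RNA was sequenced from platelets, the anucleate fragments that megakaryocytes release into the blood, purified from male BALB/c mice aged 20 weeks. All 3 libraries belong to 1 group whose genotype is Nxf1 wild type, Nxf1 being a receptor that exports mRNA from the nucleus, and they are named replicates 1, 2 and 3. Each replicate is a batch of its own in the labels, so differences of animal and of batch cannot be told apart. The samples are stated to be independent, with no mention of separate animals, so SDs and p-values cover only the variation among these samples, and that may be technical.

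Complex I (NADH dehydrogenase), complex III (cytochrome bc1) and complex IV (cytochrome c oxidase) pump protons across the inner mitochondrial membrane, and complex II feeds in electrons from succinate without pumping. Complex V, the ATP synthase, lets the protons back and makes ATP. Complex II has nuclear subunits alone, and the other complexes are built from subunits of both genomes. Platelets have no nucleus but keep mitochondria, so the nuclear-encoded mRNAs they hold were made in the megakaryocyte, while mitochondrial DNA can still be transcribed.

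The libraries held 26974129, 25189231 and 26111636 counts for replicates 1, 2 and 3. A level below is counts scaled to a library total of 1000000 (CPM) per 1000 bases of the deposited gene length, which allows genes to be compared, and a plain CPM is used where libraries are compared for 1 gene. The platelet markers were all in the tables, and all 13 reached 1 CPM in every library, with a summed CPM of 41580 to 44569. Red cell markers, 12 of 17 in the tables, took 4.89%, 0.524% and 0.684% of counts in replicates 1, 2 and 3. The 4 globin genes alone took 4.81%, 0.518% and 0.673%. Replicate 1 thus stood apart in red cell RNA, chiefly that of the globins. B cell markers, 6 of 6 in the tables, summed to 138 to 236 CPM, T cell markers (5 of 6) to 13.4 to 23.5 CPM, and monocyte and neutrophil markers (5 of 8) to 1298 to 1532 CPM, nearly all of it Lyz2 at 1387 ± 117 CPM (SD, n = 3). Fewer cells of a type and less RNA per cell cannot be told apart in such preparations, and an RNA of a few CPM may come from any of these cells.

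The 13 mitochondrial mRNAs took far more of the counts than the nuclear members did. Replicate 1 gave them 2.17% of its counts, with a 95% interval (Clopper-Pearson) from 2.169% to 2.18%. For replicate 2 the share was 2.55%, from 2.541% to 2.553%, and for replicate 3 it was 2.29%, from 2.280% to 2.292%. These intervals reflect only the error of counting. The 80 nuclear members together took 0.322%, 0.325% and 0.326% in the same order. Reads of the mitochondrial mRNAs outnumbered those of the nuclear members by 6.75, 7.84 and 7.01 times, a mean of 7.20 ± 0.570 (SD, n = 3). The mitochondrial ribosomal RNAs took 22.6%, 25.1% and 23.0% of counts, 10.1 ± 0.260 times the reads of the mitochondrial mRNAs. The nuclear share varied by 0.00213 percentage points (SD) around 0.324%, and the mitochondrial share by 0.191 percentage points around 2.34%. With totals that leave out the globins, the nuclear share was 0.338%, 0.327% and 0.329%, with an SD of 0.00634 percentage points.

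Within the mitochondrial genome the mRNAs lie close together, and pairs of them share bases. The stretch shared by mt-Atp8 and mt-Atp6, which encode a small ATP synthase subunit and the proton channel subunit a, is given here because its reads belong to both genes; capitals mark the start codon of mt-Atp6 and the stop codon of mt-Atp8 (chrMT:7927-7969, plus strand, GRCm38, from the GENCODE M21 transcripts, a reference sequence and not that of the BALB/c mice).
mt-Atp8 and mt-Atp6: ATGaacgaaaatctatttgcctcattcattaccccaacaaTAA
These 43 bases are 21.1% of mt-Atp8 and 6.31% of mt-Atp6. mt-Nd4l and mt-Nd4, which encode neighbouring membrane subunits of complex I, share the 7 bases ATGCTAA (chrMT:10167-10173). How the counting treated reads in a shared stretch is not given in the sources used here. For mt-Co3, mt-Nd4 and mt-Cytb the annotated gene ends on the first base of a stop codon, which the poly(A) tail of the mRNA is known to complete; their last 24 bases are shown with that base in capitals, since the sequencing kit is one that captures RNA by its poly(A) tail.
mt-Co3: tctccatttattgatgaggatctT
mt-Nd4: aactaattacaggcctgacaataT
mt-Cytb: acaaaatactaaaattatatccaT
The other 10 genes end on a complete stop codon, TAG in mt-Nd1 and mt-Nd2 and TAA in the rest.

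The mRNAs of the catalytic core of complex IV, of mt-Atp6 and of mt-Cytb were the highest of the mitochondrial set per length. mt-Co1, the subunit that holds the haem and copper site where oxygen is reduced, stood at 3608, 4337 and 3822 CPM per 1000 bases in replicates 1, 2 and 3. mt-Atp6 stood at 3613, 4117 and 3606, and mt-Co2, which takes electrons from cytochrome c, at 3633, 4049 and 3632. These 3 mRNAs differed from each other by less than their SD over libraries, and their order was not the same in every library. mt-Cytb, the cytochrome b of complex III, averaged 3466 ± 235 CPM per 1000 bases and mt-Co3, a core subunit without a redox centre, 3049 ± 213 (SD, n = 3). The next levels were those of mt-Nd4 at 2102 ± 172 and mt-Atp8 at 1171 ± 101.

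The remaining complex I mRNAs were lower. mt-Nd1, next to the quinone site, averaged 764 ± 94.7 CPM per 1000 bases (SD, n = 3). The antiporter-like subunits mt-Nd2 and mt-Nd5 averaged 590 ± 86.4 and 527 ± 61.2, and mt-Nd2 lay above mt-Nd5 in 3 of 3 libraries. mt-Nd4l averaged 428 ± 34.1, and mt-Nd6, the one mRNA of the other strand, 349 ± 52.6. With a kit that does not mark strand, reads of mt-Nd6 cannot be told apart from reads of RNA copied from the opposite strand. Whether capture by the poly(A) tail was equal for mt-Nd6 and the other mRNAs was not tested, so its level is uncertain. mt-Nd3, near the junction of the arms of complex I, was lowest at 107, 142 and 114.5 CPM per 1000 bases in replicates 1, 2 and 3. The 7 complex I mRNAs thus spanned 17.4-fold, while the 3 of complex IV spanned 1.29-fold. All 3 of complex IV share 50-base stretches with annotated nuclear copies (mt-Co2 100%, mt-Co3 99.9% and mt-Co1 51.1%), so their span is uncertain. Both ends of the complex I span, mt-Nd4 and mt-Nd3, share 62.2% and 98.0% of their 50-base stretches with annotated nuclear copies, so their levels are uncertain. Without these and mt-Nd4l, which shares 98.8%, the complex I mRNAs ran from mt-Nd1 at 764 to mt-Nd6 at 349, with a median of 558.5, against 527 for all 7, an alternative chosen after seeing the data. mt-Co1 alone held 25.9% ± 0.345 of all mitochondrial mRNA reads, and mt-Co1, mt-Cytb and mt-Nd4 together 55.3% ± 0.105.

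**Figure D1:**
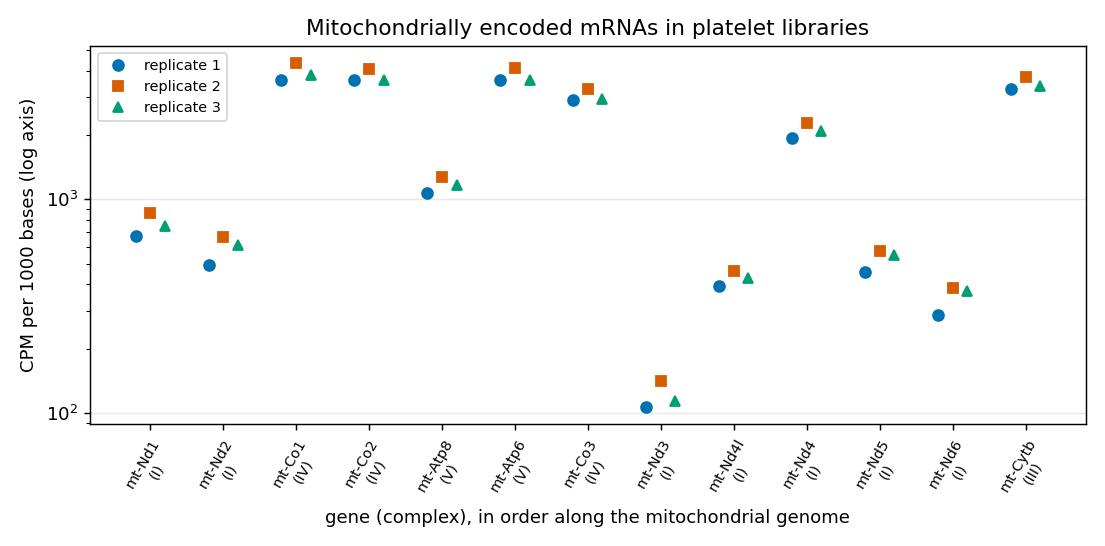
Levels of the 13 mitochondrial mRNAs in CPM per 1000 bases (log axis), in order along the mitochondrial genome, with 1 point per library. mt-Co1, mt-Co2, mt-Atp6, mt-Cytb and mt-Co3 lie between 2908 and 4337, mt-Nd3 lies between 107 and 142, and replicate 2 is the highest point of each gene.

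All 13 mitochondrial mRNAs had their highest CPM in replicate 2, where 15.8% of all rows of the tables had theirs. With CPM scaled by TMM, 13 of 13 were again highest in replicate 2, against 26.5% of all rows. With totals that left out the globin genes, 13 of 13 were highest there too. These are rescalings of the same counts, and genes of 1 mitochondrial genome need not vary independently. So 13 of 13 is not a count of independent observations. Replicate 1 was lowest for 11 of them and replicate 3 for mt-Co2 and mt-Atp6. mt-Co1 had 5575, 6701 and 5906 CPM in replicates 1, 2 and 3, and mt-Nd2 had 514, 690.1 and 633. The highest library exceeded the lowest by 1.12-fold for mt-Co2 and by 1.34-fold for mt-Nd2 and mt-Nd6, the ends of the range. The share of the mitochondrial ribosomal RNAs was likewise highest in replicate 2.

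Complex by complex, the mitochondrial mRNAs exceeded the nuclear ones per length. In complex I the median mitochondrial subunit stood at 457, 572 and 551 CPM per 1000 bases in replicates 1, 2 and 3, against 6.28, 6.13 and 7.07 for the median of 34 nuclear subunits. The log2 ratio was 6.34 ± 0.19 (SD, n = 3), or 80.9-fold. In complex III mt-Cytb exceeded the median of 8 nuclear subunits, 6.04 ± 1.47 CPM per 1000 bases, by 9.19 ± 0.35 on the log2 scale, or 584.5-fold. Complex V gave 6.60 ± 0.18, or 97.1-fold, between 2475 ± 192 for the mitochondrial median and 25.5 ± 1.79 for the median of 17 nuclear subunits. Complex IV had the smallest ratio, 4.76 ± 0.04 or 27.1-fold, between 3763 ± 248 and 139 ± 5.24 for 11 nuclear subunits. Some mitochondrial mRNAs of complexes I, IV and V share stretches with annotated nuclear copies, so those ratios are uncertain. In complex V the mitochondrial median is that of mt-Atp6 and mt-Atp8, which share bases. All of these ratios are of reads from a kit that captures RNA by its poly(A) tail. Whether it captured RNA of both genomes equally was not tested. Taken by the mean over subunits in place of the median, the log2 ratios were smaller, 4.32 in complex I, 7.15 in III, 5.94 in V and 3.87 in IV. The ratio of medians was above 0 in 3 of 3 libraries for each complex. With 3 libraries an exact sign-flip test, two-sided, cannot give a p-value under 0.25, so none was computed.

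The gap between the genomes was not complete in every complex. In complexes III, IV and V no nuclear subunit reached the lowest mitochondrial one. In complex IV the lowest mitochondrial mRNA, mt-Co3, was 4.29 times as high as the highest nuclear one, Cox5a. That value is uncertain, since 99.9% of the 50-base stretches of mt-Co3 occur in nuclear copies. In complex I, 4 nuclear subunits (Ndufa1, Ndufa3, Ndufs4 and Ndufa2) lay above mt-Nd3, which had 0.389 times the level of Ndufa1. Single partners gave ratios of the same size. mt-Co1 over Cox4i1 was 5.35 ± 0.07 on the log2 scale, mt-Atp6 over Atp5b 5.83 ± 0.19 and mt-Cytb over Cyc1 9.94 ± 0.27 (SD, n = 3). In reads not divided by length mt-Co1 over Cox4i1 was 6.54, mt-Atp6 over Atp5b 4.36 and mt-Cytb over Cyc1 9.88, so mt-Co1 over Cox4i1 then lay above mt-Atp6 over Atp5b.

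**Figure D2:**
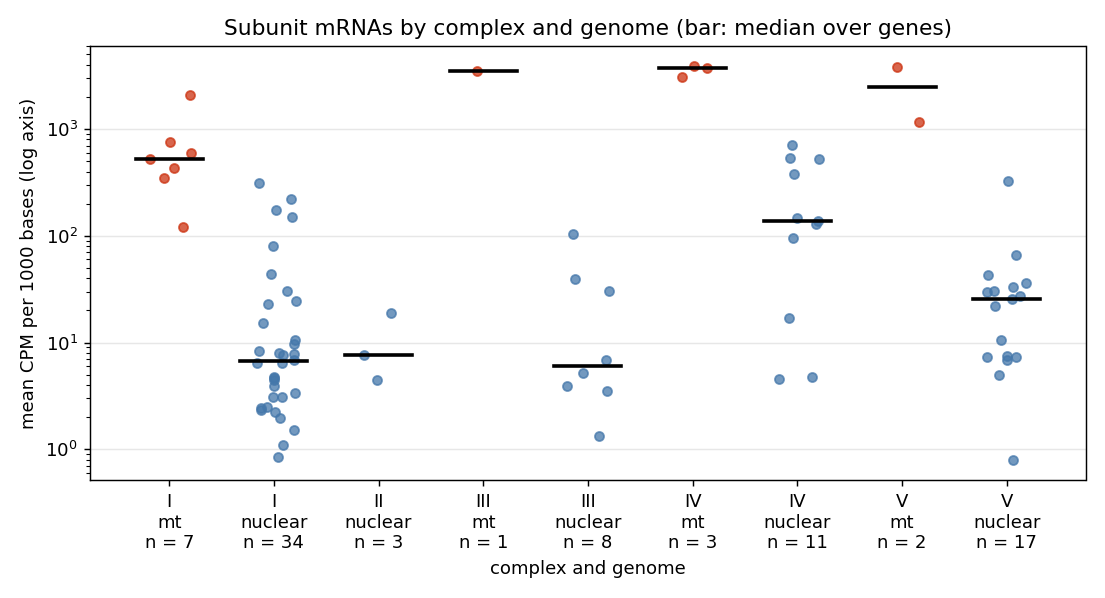
Mean level over 3 libraries, in CPM per 1000 bases (log axis), of each subunit gene by complex and genome, with 1 point per gene and a bar at the median over genes. Mitochondrial medians run from 527 in complex I to 3763 in complex IV, and nuclear medians from 6.04 in complex III to 139 in complex IV.

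Against the rest of the series the nuclear members stood high. Their median was 8.38 ± 0.917 CPM per 1000 bases, against 1.36 ± 0.218 for the other 9014 nuclear protein-coding genes and 1.60 ± 0.270 for 67 mitochondrial ribosomal protein genes (SD, n = 3). In CPM not divided by length the medians were closer, 9.502 for the nuclear members, against 3.87 for the other genes and 1.76 for the mitochondrial ribosomal protein genes. Of the 93 members 35 were among the 982 highest rows by level (10% of rows by construction), namely all 13 mitochondrial mRNAs and 22 of 80 nuclear genes. Short genes had higher levels in general, and the nuclear members are short, with a median deposited length of 680.0 bases against 2932 for the other genes. Among genes under 1000 bases the 54 nuclear members had a median of 13 CPM per 1000 bases, against 6.40 for 626 other genes. Among genes of 1000 bases or more the 26 nuclear members had 7.22, against 1.22 for 8388 others. The reads of the nuclear members were concentrated. Cox5a, Cox6b1, Ndufs4, Ndufa4 and Cox8a held 46.0% ± 1.93 of them, and the 10 most abundant 64.9% ± 0.984.

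In complex I the highest nuclear mRNAs encoded accessory subunits, those outside the catalytic core. Ndufa1, a small membrane-arm subunit (chromosome X, 37187588 to 37191238 in GRCm38), stood at 318, 319.8 and 297 CPM per 1000 bases in replicates 1, 2 and 3. Ndufa3, also of the membrane arm, stood at 218, 219 and 221. Ndufs4, an accessory subunit of the NADH-binding arm (chromosome 13, 114287795 to 114388094), stood at 177, 175 and 167. The ranges of these genes over libraries did not overlap. Ndufa2, Ndufa7 and Ndufb9 followed at 149, 80.1 and 44.1. Of the 27 accessory subunits 13 lay at 5 CPM or more in every library, as did 4000 of all 9822 rows.

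The 7 nuclear core subunits, which bind NADH and pass its electrons on through iron-sulfur clusters, were closer together than the accessory ones and had a lower median per length. Ndufs7, which hands electrons to quinone, was the highest at 13.9, 14.4 and 17.8 CPM per 1000 bases in replicates 1, 2 and 3. Ndufs3, of the quinone-binding module, was the lowest at 0.986, 0.971 and 1.30, from 25, 23 and 32 counts. Of its 50-base stretches 16.1% occur elsewhere, so its level is uncertain. The core median was 3.22 ± 0.545 CPM per 1000 bases, against 7.66 ± 0.681 for the accessory subunits (SD, n = 3). In CPM not divided by length the medians were closer, 4.59 for the core and 5.72 for the accessory subunits. The core spanned 14.1-fold per length and the accessory subunits 369.6-fold. The NADH-binding pair Ndufv1 and Ndufv2 stood at 2.31 ± 0.695 and 3.12 ± 0.648, a log2 ratio of -0.45 ± 0.12.

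The lowest complex I subunit was Ndufa8, on the intermembrane space side, at 0.953, 0.591 and 0.985 CPM per 1000 bases in replicates 1, 2 and 3, from 19, 11 and 19 counts. Ndufa5, Ndufc2 and Ndufb2 were also under 1 CPM in at least 1 library. Ndufc2, a membrane-arm subunit, had 0.593, 0.953 and 1.53 CPM, a range of 2.58-fold that rests on 16, 24 and 40 counts. Ndufb4b and Ndufb4c, close copies of the membrane-arm gene Ndufb4, stood at 3.34 ± 0.279 and 2.42 ± 0.394 CPM per 1000 bases. Ndufb4 itself was not in the tables analysed here, Ndufb4c is listed as a pseudogene in GENCODE, and the levels of both copies are uncertain because reads of near-identical genes could be divided or lost. Of the assembly factors that the symbol rule takes, Ndufaf3, of the quinone-binding module, was the highest for complex I at 3.10 ± 0.759 CPM per 1000 bases. Ndufaf8, the partner of the methyltransferase Ndufaf5, had 0.890, 0.675 and 1.34 CPM.

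**Figure D3:**
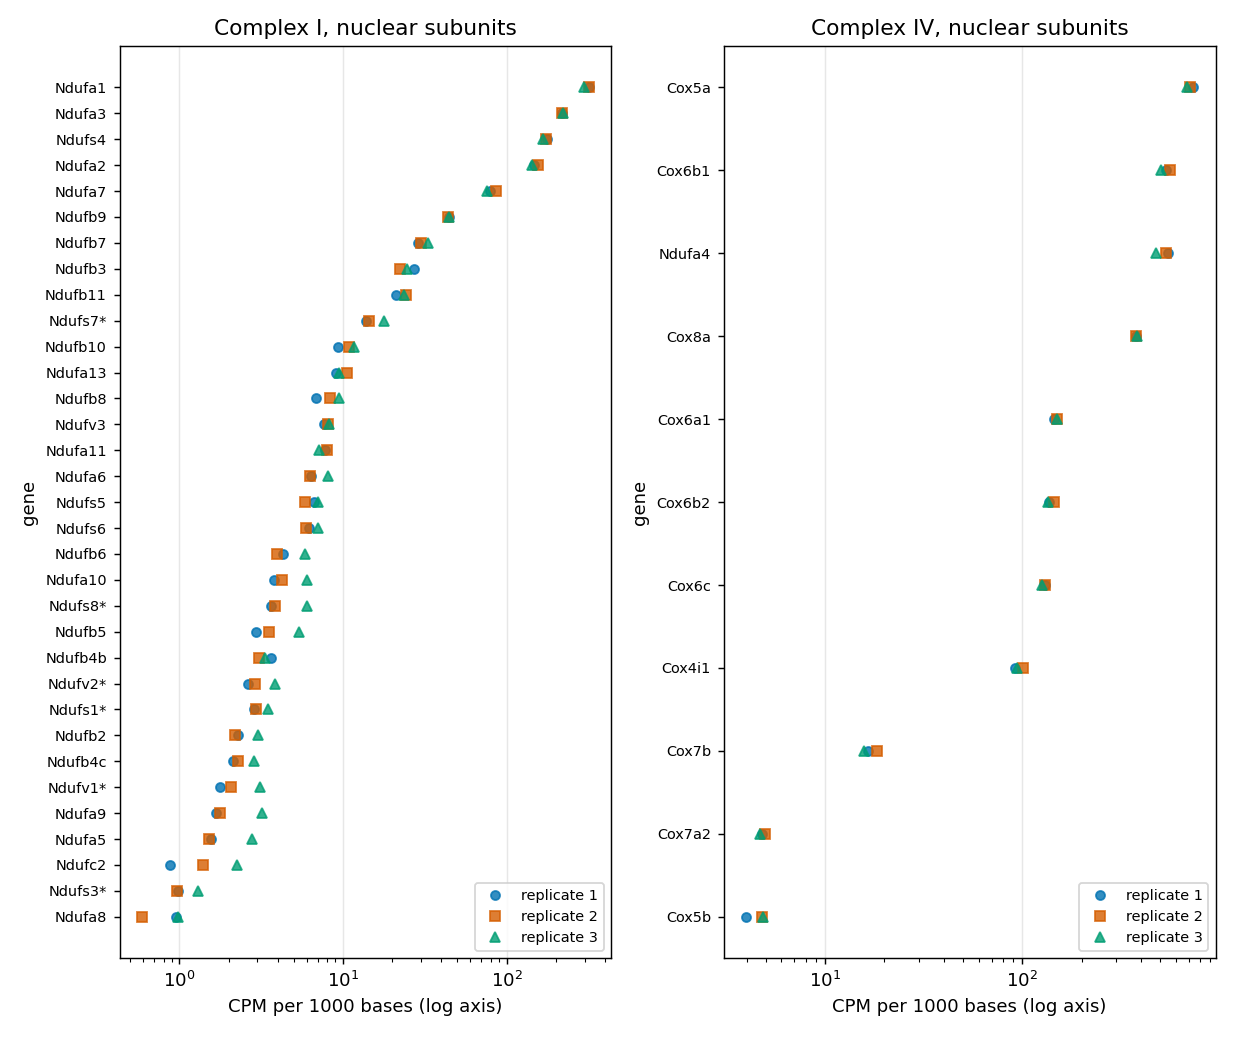
Levels of nuclear subunits of complex I (left, asterisks mark core subunits) and of complex IV (right) in CPM per 1000 bases (log axes), with 1 point per library. Ndufa1 at 311.5 and Ndufa8 at 0.843 are the ends of complex I, and Cox5a at 711 and Cox5b at 4.55 those of complex IV.

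Complex II, which oxidises succinate, was represented by 3 of its 4 subunits. Sdhc, a membrane anchor (chromosome 1, 171129157 to 171150640), stood at 17.3, 19.8 and 19.9 CPM per 1000 bases in replicates 1, 2 and 3. The iron-sulfur subunit Sdhb stood at 7.15, 6.88 and 8.77, and the flavoprotein Sdha at 4.10, 3.93 and 5.24. Sdha had less mRNA than Sdhb per length, with a log2 ratio of -0.79 ± 0.04 (SD, n = 3), but more reads, with a log2 ratio of reads of 0.62 ± 0.04. Sdhd, the other anchor, was not in the tables analysed here. The assembly factor Sdhaf2, which helps attach flavin to Sdha, exceeded all 3 subunits at 25.2 ± 0.412 CPM per 1000 bases. Sdhaf1, which delivers iron-sulfur clusters to Sdhb, was under 1 CPM in every library, at 0.519, 0.635 and 0.651. It overlaps E130208F15Rik on the opposite strand over 1733 of its 2490 exonic bases in GENCODE M21, so its level is uncertain. The deposited length of Sdhaf1 is 967 bases, so the overlap with the gene as counted was not measured.

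In complex III the 3 highest nuclear mRNAs per length encoded small subunits. Uqcrh, the hinge protein that binds cytochrome c1, stood at 100.3, 114 and 97.2 CPM per 1000 bases in replicates 1, 2 and 3, and the small subunits Uqcr10 and Uqcrq averaged 39.3 ± 2.15 and 30.5 ± 0.702 (SD, n = 3). The core proteins Uqcrc1 and Uqcrc2 averaged 5.22 ± 1.75 and 6.85 ± 1.39. Uqcrfs1, the Rieske iron-sulfur protein, and Cyc1, cytochrome c1, averaged 3.96 ± 1.13 and 3.51 ± 0.661. In CPM not divided by length Uqcr10 and Uqcrq, at 17.3 and 15.2, stood beside Uqcrc2 at 12.9. Uqcrb, another small subunit, was the lowest at 1.33, 1.26 and 1.45 CPM per 1000 bases, from 18, 16 and 19 counts. Of its 50-base stretches 25.4% also occur in annotated transcripts of other loci, so its level is uncertain.

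Complex IV had the highest median of the nuclear sets. Among its 11 nuclear subunits with values, 8 were among those 982 highest rows, against 6 of 34 in complex I, 0 of 3 in complex II, 2 of 8 in complex III and 5 of 17 in complex V. Cox5a, a matrix-side subunit (chromosome 9, 57517328 to 57532427), was the highest nuclear member, at 735, 711.5 and 686 CPM per 1000 bases in replicates 1, 2 and 3. Cox6b1, which faces cytochrome c (chromosome 7, 30616971 to 30626114), stood at 539, 559 and 508, and Ndufa4, once assigned to complex I and now to complex IV, at 547, 538 and 477. Cox8a stood at 378, 378.5 and 379.5. The subunits Cox6a1, Cox6b2, Cox6c and Cox4i1 followed between 147.5 and 95.9. At the bottom were Cox7b at 16.9 ± 1.25, the subunit 7A gene Cox7a2 at 4.80 ± 0.140 and the zinc-binding Cox5b at 4.55 ± 0.494 (SD, n = 3). Of the 50-base stretches of Cox5b 11.9% occur elsewhere. Cox5a overlaps Gm26631 on the opposite strand over 269 of 2101 exonic bases in GENCODE M21. Its deposited length is 693 bases, so the overlap with the gene as counted was not measured.

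Tissue isoforms of complex IV were mostly not in the tables analysed here. Cox4i2, Cox6a2, Cox7a1, Cox7b2, Cox8b, Cox8c and Ndufa4l2, known from lung, heart and skeletal muscle, testis or hypoxic cells, were the 7 such genes, so 5 of the 18 chosen gene pairs could not be computed. Cox6b2, known as the testis form of subunit 6B, was the exception. Its CPM was 82.6 in replicate 1 (2229 counts), 87.5 in replicate 2 (2205 counts) and 81.6 in replicate 3 (2131 counts), and none of its 50-base stretches occurs in an annotated transcript of another locus. The ubiquitous form Cox6b1 exceeded it by 1.94 ± 0.03 on the log2 scale, or 3.85-fold per length. Cox7a2l, known as SCAF1 from work on supercomplexes of complexes III and IV, a function not measured in these mice, stood at 73.5, 83.9 and 85.7 CPM per 1000 bases. That was 16.5-fold more than its relative Cox7a2, with a log2 ratio of 4.05 ± 0.13, and 13.8% of the 50-base stretches of Cox7a2l occur elsewhere.

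In complex V the highest nuclear mRNA was that of Atp5e, the epsilon subunit of the central stalk (chromosome 2, 174461075 to 174464101). It stood at 336, 268 and 374 CPM per 1000 bases in replicates 1, 2 and 3, so that replicate 2 was low. The catalytic beta subunit Atp5b stood at 62.6, 64.2 and 73.1, and the alpha subunit Atp5a1 at 38.8, 42.1 and 48.9. Although alpha and beta are present in equal number in the enzyme, Atp5b exceeded Atp5a1 in 3 of 3 libraries, with a log2 ratio of 0.63 ± 0.06. The other central stalk genes were lower, with Atp5c1 (gamma) at 6.85 ± 1.05 and Atp5d (delta) at 5.01 ± 1.58 (SD, n = 3). The 9 accessory genes lay between Atp5j2 at 36.5 ± 1.87 and Atp5l at 7.30 ± 0.695.

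The ring of complex V is built from subunit c, for which mice have a gene family whose mature protein is known to be the same. Atp5g3 stood at 29.6, 29.6 and 39.3 CPM per 1000 bases in replicates 1, 2 and 3 and Atp5g2 at 9.80, 11.4 and 10.4. Atp5g1 stood at 0.384, 1.05 and 0.927, from 9, 23 and 21 counts. Atp5g3 thus had the most of this mRNA per length, 3.07-fold above Atp5g2 (log2 ratio 1.62 ± 0.27) and 40.0-fold above Atp5g1. The log2 ratio of Atp5g1 to Atp5g2 was -3.70 ± 0.61 and that of Atp5g1 to Atp5g3 was -5.32 ± 0.64. Atp5g2 is the nuclear member with the largest share of 50-base stretches found elsewhere, 36.7%, so its level is uncertain. Atp5g1 has 11.1% and Atp5g3 none.

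A level of 1 CPM or more in all 3 libraries was reached by 83 of the 93 members (89.2%), against 77.7% of all rows. All 13 mitochondrial mRNAs reached it, as did 70 of 80 nuclear genes. The tables had been filtered before deposit, so detection is compared among genes that passed that filter. The 10 members that fell short were Ndufa8, Ndufa5, Ndufb2, Ndufb4c, Ndufc2, Ndufs3 and Ndufaf8 of complex I, Sdhaf1 of complex II, Uqcrb of complex III and Atp5g1 of complex V. By complex, 28 of 34 nuclear subunits of complex I reached it, 3 of 3 of complex II, 7 of 8 of complex III, 11 of 11 of complex IV and 16 of 17 of complex V.

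Besides the tissue isoforms, 14 other nuclear members were not in the tables analysed here. They were the assembly factors Ndufaf1, Ndufaf2, Ndufaf4, Ndufaf6, Ndufaf7 and Sdhaf3 and the subunits Ndufa12, Ndufab1, Ndufb1, Ndufb4, Ndufc1, Sdhd, Uqcr11 and Cox7c. The rule of the filter is not given, but sequence copies could be counted. Of the 7 such subunits with annotated transcripts 6 share some 50-base stretches with other loci, from Cox7c at 22.1%, Ndufb4 at 18.3% and Ndufa12 at 17.7% down, with Sdhd at 0, and their median was 7.13%. Of the 6 absent assembly factors 4 share none. The 7 tissue isoforms all share none, so over all absent members with annotated transcripts 12 of 20 share none, as do 41 of the 78 nuclear members with values and annotated transcripts. Whether shared stretches bear on which genes are in the tables was not tested.

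For the mitochondrial mRNAs such copies are far larger. The mouse nuclear genome carries inserted pieces of mitochondrial DNA, and a run of them on chromosome 1 is annotated as genes. mt-Co2, mt-Atp6, mt-Co3, mt-Nd3 and mt-Nd4l share at least 98.0% of their 50-base stretches with these or other annotated copies, mt-Nd4 62.2% and mt-Co1 51.1%. The copy of mt-Co2 on chromosome 1, Gm28661, spans 24614885 to 24615565 in GRCm38, and that of mt-Nd3, Gm28438, 24612775 to 24613119. None of the copies found was in the tables analysed here. The 5 genes with 90% or more of stretches shared spanned 121 to 3779 CPM per 1000 bases, and the 6 with under 10% spanned 349 to 3466. The groups overlap, and whether reads were lost to the copies was not tested.

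No member passed the test for variation between the libraries beyond genes of its level, which on 3 libraries does not show that the members were stable. The highest library exceeded the lowest by at most 2.74-fold in any member (Atp5g1). With a mean of 0.684 CPM Atp5g1 was not tested, and among tested members the largest range was 2.58-fold (Ndufc2). On simulated data with a change in 1 library, the test found 0 of 50 genes changed 2-fold and 30 of 50 changed 4-fold. A 2-fold change in a member would thus likely have been missed. The edgeR quasi-likelihood dispersion of each gene was set against its trend, and 0 of the 88 members tested passed at an adjusted p-value under 0.05, while 19 of all 8289 genes tested did (0.229%). At an unadjusted p-value under 0.05 there were again 0 members, against 356 genes (4.29%), and DESeq2 marked 0 members and 49 genes (0.591%) as dispersion outliers. The smallest p-value of a member was that of mt-Nd3, 0.0646, with an adjusted p-value of 0.982 by the edgeR test, and next was Uqcrc1 at 0.0948.

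The relative spread of the members was below that of all rows on both scalings. The SD over libraries was 9.61% of the mean CPM for the median member, against 16.3% for all rows, and with TMM scaling, an alternative chosen after seeing the data, 11.4% against 13.9%. Differences between groups of members depended on the scaling. On plain totals the median was 3.77% for the nuclear subunits of complex IV, 8.60% for the mitochondrial mRNAs and 20.8% for the core subunits of complex I. With TMM these were 10.3%, 12.2% and 12.7%. These values include counting error, which is larger for genes of low count, and are given as a description.

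Which library was highest for the nuclear members depended on the scaling. Of the 80 nuclear members 53 had their highest CPM in replicate 3, 17 in replicate 2 and 10 in replicate 1, where the shares of all rows were 68.7%, 15.8% and 15.5%. The core subunits of complex I were all highest in replicate 3, 7 of 7, and Ndufv1 had 2.78, 3.26 and 4.86 CPM in replicates 1, 2 and 3. TMM moves every gene of replicate 3 down by 0.13 on the log2 scale and those of replicates 1 and 2 up by 0.07 and 0.06. With CPM so scaled, 29, 30 and 21 of the 80 nuclear members were highest in replicates 3, 2 and 1, against 45.3%, 26.5% and 28.2% of all rows. Then 7 of 7 core subunits were again highest in replicate 3. Of the 11 nuclear subunits of complex IV 2 were highest in replicate 3 on plain totals and 0 with TMM scaling, where 7 were highest in replicate 2 and 4 in replicate 1. B cell and T cell marker RNA was also highest in replicate 3, at 236 and 23.5 summed CPM, and red cell marker RNA in replicate 1. Their part in these orders was not tested.

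**Figure D4:**
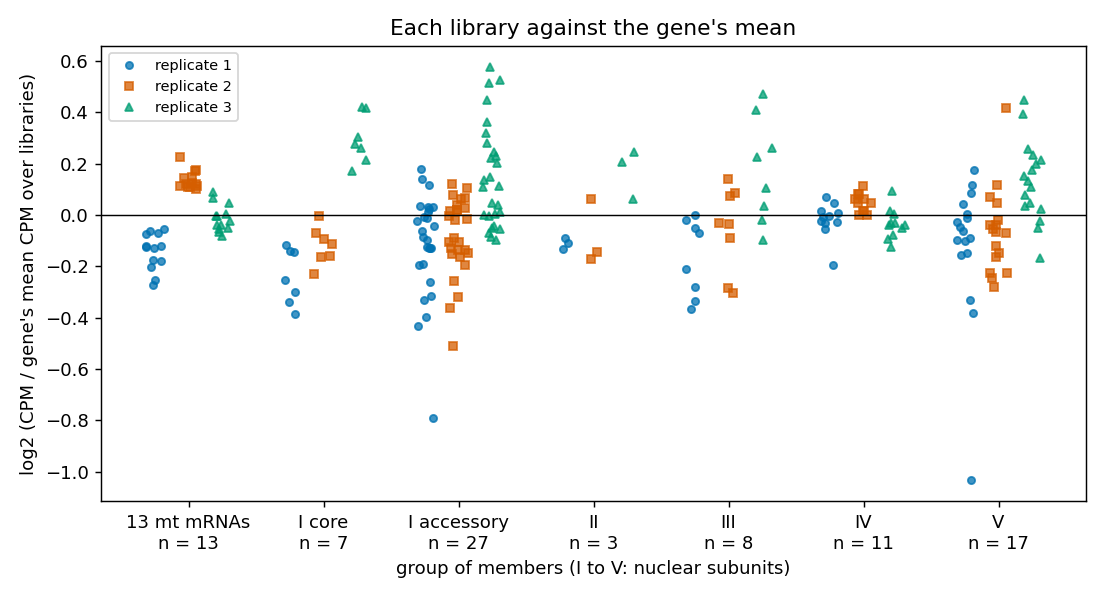
Log2 of each member's CPM in a library over its mean CPM of 3 libraries, by group of members, with 1 point per gene and library and columns for replicates 1, 2 and 3 within a group. All 13 mitochondrial mRNAs lie above 0 in replicate 2 and all 7 core subunits of complex I lie above 0 in replicate 3, on plain totals.

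Other genes of the pathway, from lists chosen beside the members, were at varied levels. Of 13 genes for electron carriers and for adenine nucleotide and phosphate exchange 12 were in the tables. Of these 11 reached 1 CPM in all 3 libraries, against 77.7% of all rows. Atpif1, the inhibitor of ATP hydrolysis by complex V, stood out at 277, 275 and 255 CPM in replicates 1, 2 and 3, or 499 ± 22.6 CPM per 1000 bases (SD, n = 3). That is above every nuclear subunit of complex V, the highest of which was Atp5e at 325.7. The outer membrane channels Vdac1 and Vdac3 averaged 39.5 ± 1.71 and 25.5 ± 0.507 CPM per 1000 bases. Cycs, the somatic cytochrome c that carries electrons between complexes III and IV, had 0.853, 0.834 and 0.919 CPM, the one gene of the list in the tables under 1 CPM. Sequence copies were counted for the members alone, so whether reads of Cycs were lost to copies is not known.

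Among assembly factors outside the symbol rule the 3 highest per length were of complex IV, to which many genes of the list belong. Of 40 such genes 28 were in the tables and 20 of these reached 1 CPM in all 3 libraries, against 77.7% of all rows. Coa5, a complex IV assembly factor, had 878, 886 and 854 CPM in replicates 1, 2 and 3, more reads than any nuclear member, of which Cox5a had 509.5, 493 and 476 CPM. Per 1000 bases Coa5 stood at 226 ± 4.33, Cox17, a copper chaperone, at 120 ± 12.9, and Coa3, which takes part in the synthesis of the mt-Co1 protein, at 104 ± 6.22 (SD, n = 3). The haem factors Cox10 and Cox15, also of complex IV, were at 0.202 ± 0.128 and 0.296 ± 0.0358, so the list itself spanned a wide range.

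The promoters of the members were searched for motifs of the factors NRF1, GABPA and YY1, which are known to act at respiratory genes. RefSeq promoters of GRCm38.p6, 250 bases before to 50 after the first listed start, were matched for 82 of 101 nuclear members, of which 66 are in the tables. The NRF1 motif, GCGCA and GCGC with any 1 base between them, was present in 24.4% of the members' promoters, against 4.78% of all promoters and 11.3% of the other protein-coding genes in the tables. The GABPA motif CCGGAAG was present in 25.6%, against 9.12% and 20.2%. The YY1 motif AANATGGC was present in 22%, against 6.23% and 9.83%. Among the 66 members in the tables, the like set for the last value of each motif, the shares were 24.2% (NRF1), 25.8% (GABPA) and 25.8% (YY1). Both strands were read, and of the 82 promoters 50 held at least 1 of the motifs. No matches of different motifs overlapped in the members, although 5 promoters held NRF1 and GABPA motifs, 3 GABPA and YY1 and 1 NRF1 and YY1.

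For each motif the promoter of the highest and of the lowest member with a match before the start is shown, to set the letters beside the levels. Windows are 100 bases, 5′ to 3′ on the strand of the gene, all on the minus strand of GRCm38.p6, with the named motif in capitals.
Cox6a1, NRF1: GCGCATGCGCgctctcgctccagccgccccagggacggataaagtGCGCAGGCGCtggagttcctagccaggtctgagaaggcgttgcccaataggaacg
Ndufa8, NRF1: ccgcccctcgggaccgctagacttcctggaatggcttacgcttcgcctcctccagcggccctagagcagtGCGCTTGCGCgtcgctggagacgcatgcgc
Cox6b1, GABPA: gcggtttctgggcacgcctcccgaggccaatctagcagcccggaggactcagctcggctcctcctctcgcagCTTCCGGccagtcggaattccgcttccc
Ndufs3, GABPA: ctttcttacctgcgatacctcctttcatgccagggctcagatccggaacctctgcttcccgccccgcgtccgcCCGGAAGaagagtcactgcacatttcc
Sdhaf2, YY1: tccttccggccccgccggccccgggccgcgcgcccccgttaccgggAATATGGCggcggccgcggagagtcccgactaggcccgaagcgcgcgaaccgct
Ndufaf3, YY1: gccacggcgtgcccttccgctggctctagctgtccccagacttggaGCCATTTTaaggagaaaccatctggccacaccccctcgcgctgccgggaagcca
The windows are chr5:115349021-115349120 for Cox6a1, chr2:36049339-36049438 for Ndufa8, chr7:30626115-30626214 for Cox6b1, chr2:90904722-90904821 for Ndufs3, chr19:10525270-10525369 for Sdhaf2 and chr9:108567460-108567559 for Ndufaf3. The same letters stand before genes far apart in level: Cox6a1 and Ndufa8 were at 147.5 and 0.843 CPM per 1000 bases, Cox6b1 and Ndufs3 at 535 and 1.09, and Sdhaf2 and Ndufaf3 at 25.2 and 3.10. Members in the tables with the NRF1 motif had a median of 6.71 CPM per 1000 bases (16 genes), against 10.2 without it (50 genes). With the GABPA motif the median was 22 (17 genes), against 7.44 without it (49 genes), and with the YY1 motif 15.4 (17 genes), against 7.39 (49 genes). With a match anywhere in the promoter the range was wider than the pair shown. The lowest members were then Ndufaf5 at 0.686 for NRF1, Sdhaf1 at 0.622 for GABPA and Ndufaf8 at 1.96 for YY1, and the highest with YY1 was Ndufa3 at 219. A match is a description of the letters in this window, and no test was made of these medians.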

How the data were processed

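RNA-seq of 3 libraries was analysed. Per the labels' protocols, a Norgen kit gave the RNA and the Illumina TruSeq RNA v2 kit the libraries. The authors deposited raw counts per Entrez gene and, in the other column, a gene length in bases, per the file headers. The submitters' processing notes name mm10 and, as tools, edgeR 3.11.5, featureCounts, Subread and CASAVA 1.8.2. Whether counting used strand, how it handled multi-mapped reads and how genes were filtered is not given in the sources used here. Genes that have near-identical copies, or that overlap on opposite strands, could therefore have reads lost or divided. Among members in the tables the overlap, by share of exonic bases in GENCODE M21, was largest for Sdhaf1, Ndufb6 and Ndufa13.

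Entrez numbers were paired with symbols through RefSeq for GRCm38.p6 (9636 of 9822) and GENCODE M21 (2 more), and 184 had none. CPM used the plain total of counts, of which 3 counts, the limit that a count of 0 allows, are 0.111 to 0.119 CPM. Pair ratios used a prior of 2 counts. Copies were counted as shared stretches of 50 bases (and of 100) in GENCODE M21 transcripts of other loci. The spread between libraries was tested with edgeR 4.0.16 in R 4.3.3 (intercept, TMM, mean CPM of at least 1, upper tail of the F distribution, Benjamini-Hochberg over all genes tested), with DESeq2 1.42.0 as an alternative, and the test was tried on simulated data first. Other steps used Python 3.11.15, pandas 2.3.3 and SciPy 1.17.1.

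The members, gene lists, pairs and motifs were chosen with earlier results of these data known. Genes were named by a rule: the mitochondrial mRNAs, the 3 highest and the lowest nuclear subunit and the highest assembly factor of each complex, members under 1 CPM, genes of 18 pairs and the 3 highest of each list; the others named were chosen after their values were seen. A gene that the rule names is not reported here.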

Additional observations from a re-analysis of the deposited data

How the results depend on the processing

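Of the complex medians, shares, ratios, detection counts and call counts, 78 recomputed values stayed within 1 SD (for a count, within 1.5 times) and 27 moved. The shares, medians and ratios are means over libraries. Leaving out 1 of 3 libraries cannot move such a mean by 1 SD, so those recomputed values were bound to stay. Within the limit of 1.5 times, 83 detected members became 60 at a minimum of 5 CPM and 91 at 0.5 CPM. Those minimums were reached by 4000 and 9137 of all 9822 rows. Likewise 19 calls over all genes became 28 with DESeq2 size factors and 23 with no filter. Without the mitochondrial ribosomal RNA in the totals, the mitochondrial share was 3.06% and the nuclear share 0.424%, and without the globins the nuclear share was 0.331%, by construction of the totals. In CPM not divided by length, the mitochondrial medians were 612.5 (complex I), 3965 (III), 2580.0 (IV) and 1406 (V), and the nuclear medians 5.50 (I), 12.6 (II), 10.8 (III), 78.6 (IV) and 9.92 (V). The log2 ratios of mitochondrial to nuclear mRNA were then 6.81 (I), 8.55 (III), 5.03 (IV) and 7.15 (V). By the mean over subunits, per length, they were 4.32 (I), 7.15 (III), 3.87 (IV) and 5.94 (V). Complex IV had the smallest of these ratios each time. Without Ndufb4b and Ndufb4c, an alternative chosen after seeing the data, the nuclear median of complex I was 7.05. The ratio of Sdha to Sdhb reversed to 0.62 on reads not divided by length, and Cox6b1 to Cox6b2 moved to 1.69 (1.94 per length), Cox7a2l to Cox7a2 to 4.65 and Atp5b to Atp5a1 to 0.26.

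Leaving out 1 library gave mitochondrial shares of 2.23% to 2.42%, log2 ratios of 6.24 to 6.42 (I), 9.07 to 9.39 (III), 4.74 to 4.78 (IV) and 6.50 to 6.68 (V), and 83 or 84 members detected. Called members stayed at 0 by edgeR and DESeq2 under the alternatives run; at an unadjusted p-value under 0.05 there were 0 of 88 by the edgeR fit with TMM (356 of 8289 genes), 3 of 88 with plain totals (349 of 8289), 1 of 89 without replicate 1 (335 of 8394) and 7 of 84 without replicate 3 (379 of 8003). Over all genes, 19 calls became 11 with plain totals, 11 with a minimum mean of 5 CPM, 49 by DESeq2 and 1 to 32 when 1 library was left out, namely 1 without replicate 1, 29 without replicate 2 and 32 without replicate 3. The causes of these moves were not tested. No paired analysis was possible because the series has 1 group. Depth limits the members under 1 CPM in some library, which rest on 9 to 40 counts.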

Other observations

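Of 22 genes of mitochondrial DNA maintenance and transcription 16 were in the tables and 10 of these reached 1 CPM in all 3 libraries, against 77.7% of all rows. Their median was 3.17 CPM, against 3.87 for all rows. The highest were Tfb2m, a mitochondrial transcription factor, at 4.36 ± 0.275 CPM per 1000 bases, Sucla2, a succinyl-CoA synthetase subunit, at 4.26 ± 0.213, and Mgme1, a mitochondrial exonuclease, at 4.02 ± 0.219 (SD, n = 3). Polrmt, the mitochondrial RNA polymerase, had 0.445, 0.596 and 0.881 CPM in replicates 1, 2 and 3, on only 12, 15 and 23 counts. Tfam, which packages mitochondrial DNA, had 1.37, 2.14 and 4.14 CPM.

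Of 16 genes that stabilise, cut or add poly(A) to mitochondrial mRNA 12 were in the tables, with a median of 0.865 CPM. Of these 5 reached 1 CPM in all 3 libraries, against 77.7% of all rows. The list was led by Hsd17b10, a subunit of mitochondrial RNase P, at 5.35 ± 1.12 CPM per 1000 bases. Next were Mtpap, the mitochondrial poly(A) polymerase, at 3.61 ± 0.209, and Slirp, which binds mitochondrial mRNA, at 1.66 ± 0.593 (SD, n = 3). Of 11 nuclear regulators of respiratory genes 9 were in the tables and all 9 reached 1 CPM in all 3 libraries, against 77.7% of all rows. Nfe2l2, a regulator of the antioxidant response, was highest at 16.5 ± 0.809 CPM per 1000 bases, then Yy1 at 7.48 ± 1.02 and the co-regulator Hcfc1 at 2.83 ± 0.618. Nrf1 and Gabpa, whose motifs were searched, were at 0.443 ± 0.120 and 0.794 ± 0.178.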
